A study of Homo sapiens with 9 samples.

Results

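The CD1 family comprises CD1A, CD1B, CD1C, CD1D and CD1E, and its 5 genes were taken by symbol from the 58096 gene identifiers counted in RNA sequencing of ALL-SIL cells. ALL-SIL is an established human line from a T-cell acute lymphoblastic leukaemia that carries the homeobox oncogene TLX1. Polyadenylated RNA came from cells electroporated with TLX1 siRNA1, TLX1 siRNA2 or NTC siRNA, in 3 libraries each that are numbered 1 to 3. All 9 libraries thus share the line and the electroporation, while the sources used here give no dose, no harvest time and no meaning for NTC. The labels do not say whether same-group libraries came from separate cultures, so p-values reflect the spread among these libraries, which may be a technical one only.

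CD1 proteins are antigen-presenting molecules built like MHC class I heavy chains that pair with beta-2 microglobulin, but they hold lipids rather than peptides. CD1a, CD1b and CD1c reach the cell surface and show lipids to T cells, CD1d selects and activates natural killer T (NKT) cells, and CD1e stays inside the cell, where it helps to load lipids onto CD1b. Cortical thymocytes, the CD4+CD8+ stage at which T cell receptors are assembled and tested, carry CD1 proteins, and CD1a is the usual marker of cortical T-cell leukaemia. Dendritic cells, Langerhans cells and B cells also make some of them.

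The 5 genes lie within 177607 bases of chromosome 1 (GRCh38, GENCODE 29). In map order, CD1D (ENSG00000158473.6) spans 158179947 to 158184896, CD1A (ENSG00000158477.6) 158254137 to 158258269 and CD1C (ENSG00000158481.12) 158289786 to 158293630. CD1B (ENSG00000158485.10) spans 158327951 to 158331531 and CD1E (ENSG00000158488.15) 158353696 to 158357553. CD1B is on the minus strand and the other 4 are on the plus strand. No other annotated gene overlaps the body of any of the 5, so counts without regard to strand mixed none of them with an annotated antisense partner.

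Since reads are counted per gene, the likeness of the members sets how well they can be told apart. Aligned coding sequences were 70.0% (CD1C with CD1D) to 74.4% (CD1A with CD1B) identical. The closest stretch lies in the exon that encodes the immunoglobulin-like alpha3 domain, the part that meets beta-2 microglobulin, and is shown because it is where a read could belong to several members. It is exon 5 in the CD1D transcript and exon 4 in the other 4, and each line gives 92 coding bases 5′ to 3′ on the gene's own strand, read from GENCODE 29 transcripts on GRCh38. Capitals mark bases that differ from CD1A. The stretches lie at chr1:158256835-158256926 (plus strand, CD1A), chr1:158329508-158329599 (minus, CD1B), chr1:158355876-158355967 (plus, CD1E), chr1:158182927-158183018 (plus, CD1D) and chr1:158292645-158292736 (plus, CD1C).
CD1A: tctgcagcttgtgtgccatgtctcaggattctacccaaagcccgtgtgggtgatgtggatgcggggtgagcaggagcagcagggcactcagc
CD1B: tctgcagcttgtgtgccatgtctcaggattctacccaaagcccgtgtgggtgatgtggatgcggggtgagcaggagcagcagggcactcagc
CD1E: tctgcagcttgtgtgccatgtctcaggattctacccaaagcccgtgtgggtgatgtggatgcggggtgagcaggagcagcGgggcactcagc
CD1D: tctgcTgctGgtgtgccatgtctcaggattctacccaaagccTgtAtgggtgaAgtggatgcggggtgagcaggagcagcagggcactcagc
CD1C: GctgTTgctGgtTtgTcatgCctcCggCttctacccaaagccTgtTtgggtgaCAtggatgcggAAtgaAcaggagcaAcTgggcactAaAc

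CD1A and CD1B were identical over all 92 bases, CD1E differed from CD1A at 1 base, CD1D at 5 and CD1C at 20. Of the 50-base windows of a member's transcript, 3.79% in CD1B, 2.77% in CD1E, 2.59% in CD1A, 0.454% in CD1D and 0 in CD1C also occurred in another member, and no 100-base window of any member did. The sources used here give no read length. Reads that map to several places are counted apart from the genes in tables of this layout. A small part of the CD1A, CD1B and CD1E reads, and a smaller part for CD1D, may thus be missing from the counts. The rest of each compared transcript tells the members apart. Only the transcript with the longest coding sequence of each gene was compared.

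On average, the targeted gene was lower under neither TLX1 siRNA label than under NTC. TLX1 stood at 406, 457 and 387 CPM (read counts scaled to a common library total) in replicates 1, 2 and 3 labelled siRNA1, 198, 231 and 179 CPM in those labelled siRNA2, and 184, 167 and 183 CPM in those labelled NTC. It was 2.34-fold higher under the siRNA1 label than under NTC (edgeR quasi-likelihood adjusted p = 0.000449), and did not pass between siRNA2 and NTC (edgeR adjusted p = 1). Each difference below is therefore one between libraries labelled siRNA1, siRNA2 or NTC, and none is taken to follow from less TLX1. Gene counts ranged from 58305492 to 99524663 per library, and all 5 members passed the filter on low counts among 18554 genes tested. In bulk RNA, fewer cells that make a transcript and less of it per cell cannot be told apart.

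All 5 genes were transcribed in all 9 libraries, at very unequal levels. Per length, in TPM (read counts divided by exon length and scaled to a common total) over the 9 libraries, CD1B averaged 286 ± 92.0 TPM, CD1E 189 ± 74.5 TPM, CD1A 105.4 ± 39.0 TPM, CD1D 15.8 ± 3.57 TPM and CD1C 6.26 ± 1.82 TPM (SD, n = 9). With these exon lengths, this order held in each of the 9 libraries. The ranges of neighbours overlapped for CD1B (186 to 441 TPM) with CD1E (98.6 to 304 TPM), and for CD1E with CD1A (51.8 to 161 TPM). Those of CD1A, CD1D (10.6 to 20.7 TPM) and CD1C (3.73 to 9.05 TPM) did not overlap. Among 18459 tested genes with a length, CD1B ranked 432nd by mean TPM, CD1E 732nd, CD1A 1513th, CD1D 7673rd and CD1C 10219th. CD1C, the least abundant, rested on 140 to 295 reads a library. The exon length of CD1E spans 15 transcripts and is 2203 bases, whereas its transcript in the sequence comparison has 1458. For CD1A, CD1B, CD1C and CD1D these lengths are equal. A shorter length gives CD1E a higher TPM, and its ratio to CD1B was 0.494 to 0.800 with 2203 bases. The order of CD1B and CD1E, the ranks and the shares below thus depend on that length, and the shorter one was not tested.

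CD1B made up 46.0% to 50.05% of the summed TPM of the family, whichever siRNA the label named. CD1E made up 24.0% to 37.1%, CD1A 12.9% to 24.4%, CD1D 2.12% to 3.21% and CD1C 0.927% to 1.27%. The CD1E share was lowest in replicate 1 of each group, and the CD1A share was highest there. The summed level was 381, 402 and 683 TPM in replicates 1, 2 and 3 labelled siRNA1, 511, 514 and 910.3 TPM in those labelled siRNA2, and 542, 550.5 and 929 TPM in those labelled NTC. In each group the replicate 3 library held the most CD1 mRNA, and at each number the siRNA1 library held the least.

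**Figure D1:**
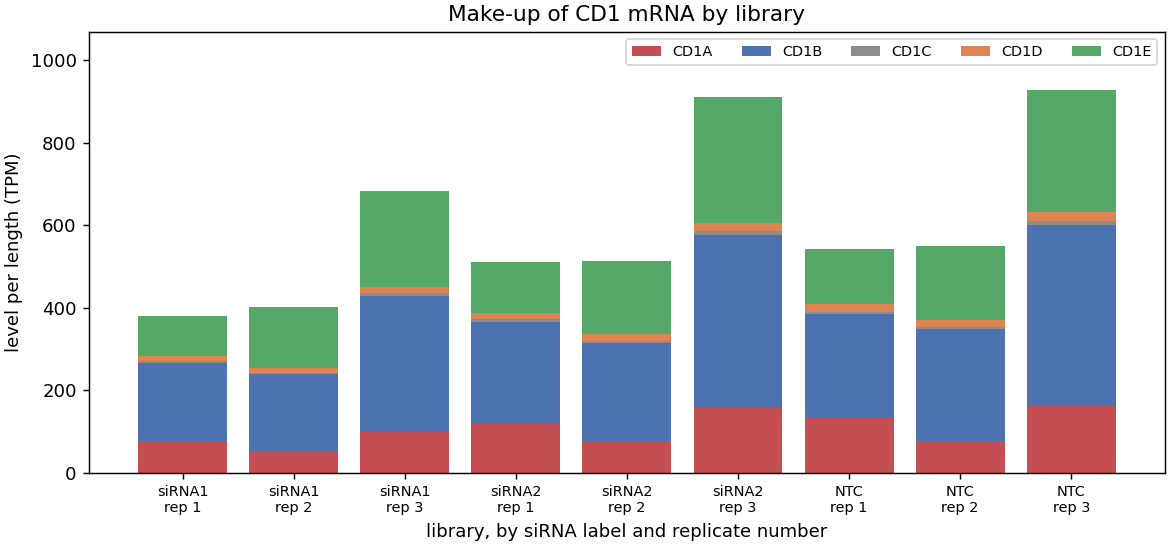
Stacked level per length (TPM, vertical axis from 0) of the 5 CD1 genes in each of the 9 libraries (horizontal axis, by siRNA label and replicate number). CD1B and CD1E fill most of each bar, CD1C and CD1D are thin bands, and the 3 replicate 3 bars (683, 910.3 and 929 TPM) are the tallest of their groups.

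The libraries were checked for other cells known to make CD1. T lineage markers summed to 2170.1 to 2726 CPM, whereas 8 dendritic and Langerhans cell markers summed to 0.521 to 1.20 CPM under the siRNA1 label, 0.677 to 1.07 CPM under siRNA2 and 0.630 to 1.05 CPM under NTC. CD207, which defines Langerhans cells, had 0 counts in every library. Summed markers of monocytes and macrophages reached at most 0.661 CPM and those of NK cells at most 0.211 CPM. The 7 B cell markers summed to 22.9 to 28.0003 CPM under the siRNA1 label, 20.0 to 27.6 CPM under siRNA2 and 25.8 to 33.0 CPM under NTC, mostly CD79A and CD79B. MS4A1 and CD22, which mark B cells, averaged 0.00157 and 0.00111 CPM over the libraries. None of the 5 B cell and 3 dendritic cell markers that were tested passed between siRNA1 and NTC, with or without the replicate number as a block. Of all genes tested, 1.28% passed in this comparison without the block and 11.4% with it, in either direction. So few markers could thus show no call at those shares. Of the genes that define the cortical stage, CD4 averaged 119 CPM, CD8A 66.1 CPM, RAG1 32.6 CPM and PTCRA, the pre-T cell receptor chain, 0.420 CPM.

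The first comparison sets the libraries labelled TLX1 siRNA1 against those labelled NTC siRNA. Every member was lower in the siRNA1-labelled library than in the NTC-labelled library of the same number, in 15 of 15 pairs. The differences were moderate, from 1.27-fold for CD1E to 1.60-fold for CD1A in the fit that takes the replicate number as a block. That fit compares same-numbered libraries, and in it all 5 genes fell, where 5.93% of all genes tested passed as lower. Without the block none of the 5 passed, where 1.28% of all genes passed in either direction. With every gene that had a count kept in the fit, CD1A, CD1B, CD1D and CD1E passed without the block too (edgeR adjusted p = 1.62e-08, 0.00185, 0.00425 and 0.0427), as did 590 genes in all. Libraries left out aside, 8 alternative fits had no block, and only this 1 called CD1A, CD1B or CD1E. All 5 were lower in all 3 pairs, as were 22.8% of all genes tested. The median log2 difference of the 5 genes was −0.53 with the block, beside 0.0048 over all genes tested.

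CD1A, the marker of cortical leukaemia, showed the largest difference of the 5. It stood at 46.4, 31.0 and 54.2 CPM in replicates 1, 2 and 3 labelled siRNA1, against 81.1, 42.7 and 91.7 CPM in those labelled NTC. NTC replicate 2 fell inside the siRNA1 range, so the groups overlapped, although each siRNA1 library was below its NTC counterpart. The log2 fold change was −0.71 (SE 0.29, edgeR adjusted p = 0.391) without the block and −0.68 (SE 0.07, edgeR adjusted p = 6.97e-07) with it.

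CD1D, which presents glycolipids to NKT cells, was the only member whose groups did not overlap, as for 8.27% of all genes tested in the lower direction. It stood at 7.003, 6.83 and 8.61 CPM in the siRNA1-labelled libraries, against 11.5, 10.03 and 12.7 CPM in those labelled NTC. It varied less within a group than the other 4, with a highest library 1.26-fold above the lowest under the siRNA1 label. Its log2 fold change was −0.61 (SE 0.14, edgeR adjusted p = 0.0571) without the block, just short of the threshold of 0.05, and −0.61 (SE 0.08, edgeR adjusted p = 1.64e-05) with it. DESeq2 called it without a block (adjusted p = 0.000861).

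CD1B, which binds long-chain lipids such as mycolic acids, had 77.0, 74.3 and 121.7 CPM in replicates 1, 2 and 3 labelled siRNA1, against 102.5, 101.9 and 167.1 CPM in those labelled NTC. Its log2 ratios within the numbers were close to each other, at −0.41, −0.46 and −0.46. The fit with the block gave −0.44 (SE 0.06, edgeR adjusted p = 1.84e-05), and the fit without it −0.44 (SE 0.24, edgeR adjusted p = 0.597). Without NTC replicate 3 the value without the block was −0.17, and without siRNA1 replicate 3 it was −0.71.

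CD1E, the intracellular helper of lipid loading, had 62.9, 93.8 and 135.7 CPM under the siRNA1 label, against 86.5, 107.4 and 178.1 CPM under NTC. The within-number log2 ratios were −0.46, −0.19 and −0.39, the smallest of the family at numbers 2 and 3. It was −0.35 (SE 0.07, edgeR adjusted p = 0.000821) with the block and −0.35 (SE 0.33, edgeR adjusted p = 0.834) without it. The value without the block was 0.0078 without NTC replicate 3, −0.11 without siRNA1 replicate 1, −0.55 without NTC replicate 1 and −0.66 without siRNA1 replicate 3. Without the 3 replicate 1 libraries the call with the block was lost (edgeR adjusted p = 0.0624).

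CD1C, which samples lipids through recycling endosomes, had 1.86, 1.53 and 2.44 CPM under the siRNA1 label, against 2.90, 2.02 and 3.53 CPM under NTC. The lowest NTC library again lay within the siRNA1 range. Its log2 fold change was −0.53 with the block (SE 0.12, edgeR adjusted p = 0.00666) and −0.53 without it (SE 0.24, edgeR adjusted p = 0.481), and −0.34 without the block when NTC replicate 3 was left out. The call with the block was lost without NTC replicate 1 (edgeR adjusted p = 0.0669) and without the 3 libraries numbered 1 (0.0821) or 3 (0.0658).

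**Figure D2:**
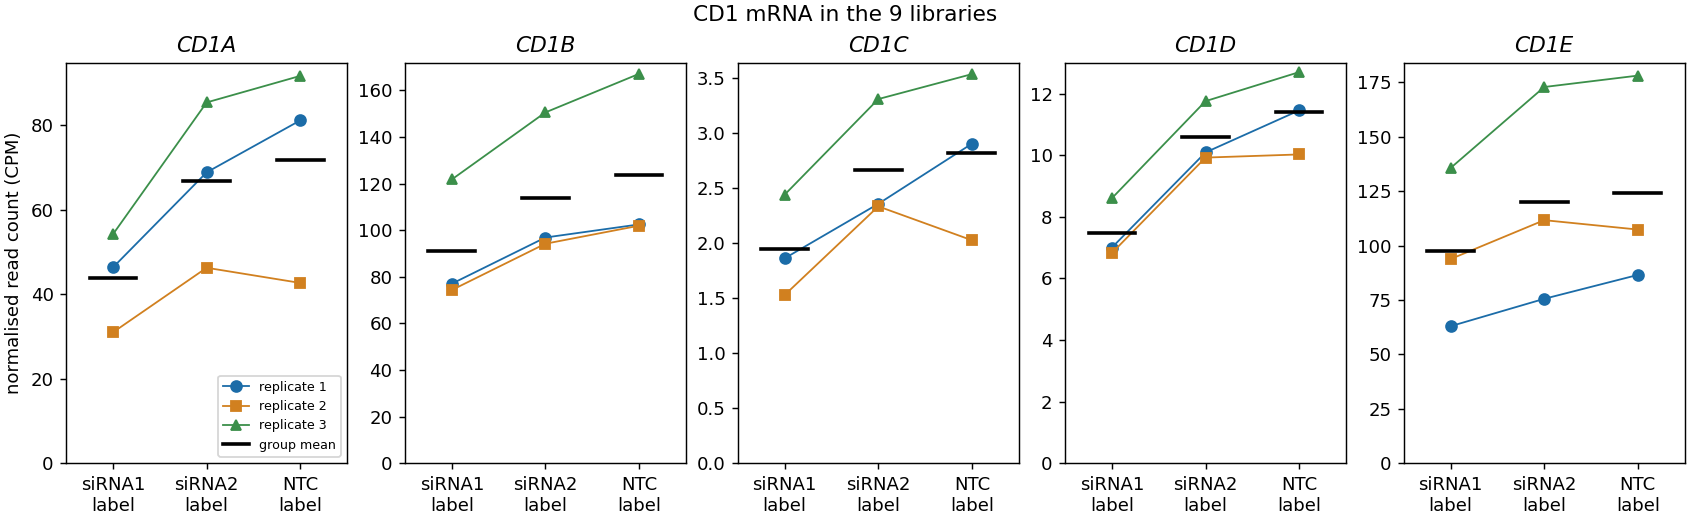
Normalised read count (CPM, vertical axes from 0, a scale for each gene) of the 5 CD1 genes by siRNA label, with libraries of the same replicate number joined by a line and group means as black bars. Each line is lowest at the siRNA1 label, while the lines themselves lie apart, most for CD1A and CD1E.

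The libraries labelled siRNA2 were then set against those labelled NTC. No CD1 gene passed between the libraries labelled siRNA2 and NTC, with or without the block. In this comparison edgeR called 0% of the 18554 genes without the block (392 had an unadjusted p under 0.05; DESeq2 called 4 and limma-voom 0) and 0.151% with it. CD1D stood at 10.1, 9.92 and 11.8 CPM and CD1A at 68.9, 46.3 and 85.4 CPM in replicates 1, 2 and 3 labelled siRNA2. CD1B stood at 96.8, 94.2 and 150.5 CPM, CD1E at 75.5, 111.7 and 172.9 CPM and CD1C at 2.35, 2.33 and 3.30 CPM. For every member these ranges overlapped those of the NTC libraries given above.

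With the block, the log2 fold change of siRNA2 over NTC was −0.10 for CD1D (95% interval −0.27 to 0.07), −0.08 for CD1A (−0.23 to 0.07) and −0.12 for CD1B (−0.24 to 0.0091). It was −0.06 for CD1E (−0.20 to 0.08) and −0.06 for CD1C (−0.32 to 0.20). All 5 intervals include 0, and a lower level under the siRNA2 label is allowed down to their lower ends. CD1B and CD1D were lower in all 3 pairs, as were 13.6% of all genes tested. CD1A, CD1C and CD1E were lower at numbers 1 and 3 and higher at number 2.

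The direct comparison of the siRNAs tests whether the 2 labels differ. In 15 of 15 pairs the CD1 gene was lower in the siRNA1-labelled library than in the siRNA2-labelled one (21.6% of all genes tested were lower in all 3 pairs). With the block all 5 fell, against 5.27% of all genes tested that passed as lower, and none passed without it (1.08% of all genes did). CD1A was lower by a log2 fold change of −0.60 (SE 0.07, edgeR adjusted p = 4.22e-06) and CD1D of −0.51 (SE 0.08, edgeR adjusted p = 0.000204). CD1D was again the only member with groups that did not overlap, as for 7.23% of all genes tested in the lower direction.

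CD1C followed at −0.46 (SE 0.13, edgeR adjusted p = 0.0197), CD1B at −0.33 (SE 0.06, edgeR adjusted p = 0.000712) and CD1E at −0.29 (SE 0.07, edgeR adjusted p = 0.00516), all with the block. The CD1C call was lost in 5 of 9 fits that left out 1 library. It was lost without siRNA1 replicate 1 (edgeR adjusted p = 0.0973), 2 (0.0618) or 3 (0.0752) and without siRNA2 replicate 2 (0.152) or 3 (0.0684). The CD1E call was lost without siRNA1 replicate 1 (edgeR adjusted p = 0.0756) and without the 3 libraries numbered 1 (0.0602) or 3 (0.0527). The siRNA1-labelled libraries enter both comparisons, so the differences from NTC and from siRNA2 are not independent of each other.

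**Figure D3:**
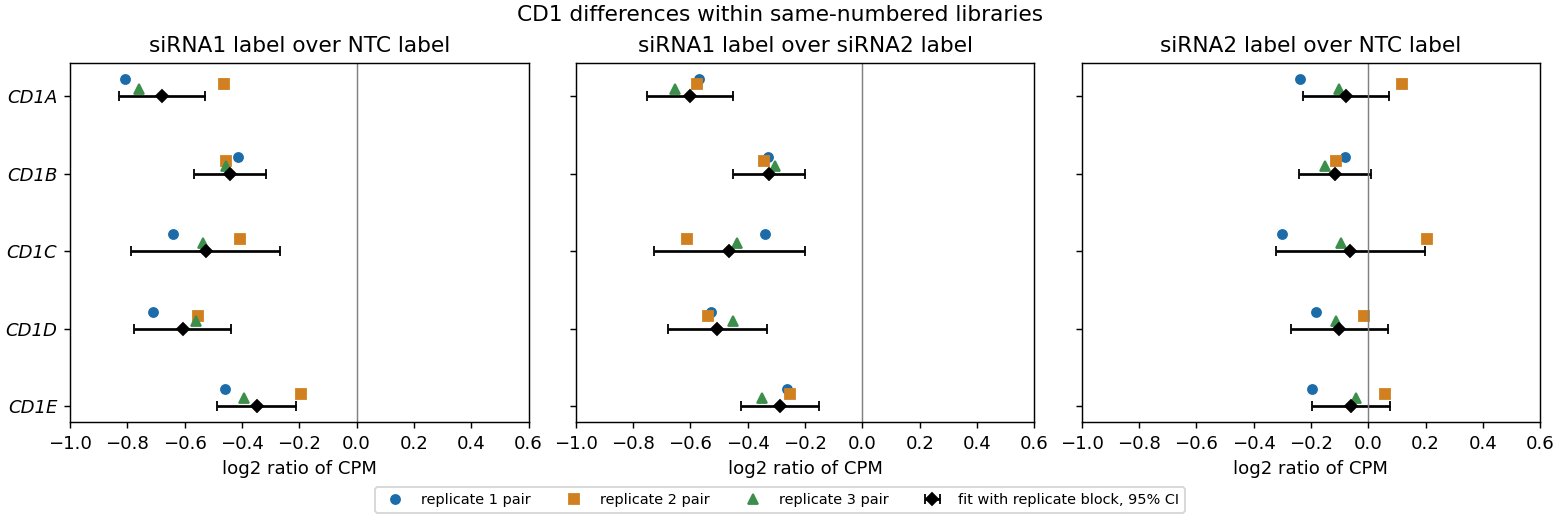
Log2 ratio of CPM (horizontal axis) for each CD1 gene in 3 comparisons, with 1 coloured point for each pair of same-numbered libraries and a black diamond with its 95% confidence interval for the fit with the replicate block. All points of both panels with the siRNA1 label lie below 0, and in the panel of siRNA2 over NTC every interval spans 0.

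The levels of the CD1 genes also differed between replicate numbers. In the fit of label and number, the number term passed for all 5 genes, as for 35.8% of all genes tested. CD1E varied most: averaged over labels, libraries numbered 3 were 1.11 log2 units above those numbered 1 and those numbered 2 were 0.48 above them (edgeR adjusted p = 2.11e-10). Within a group its highest library was 2.16-fold above the lowest under the siRNA1 label, 2.29-fold under siRNA2 and 2.06-fold under NTC. CD1B was 0.67 higher at number 3 than at number 1 and −0.03 apart at number 2 (edgeR adjusted p = 7.55e-09).

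CD1A took another course. It was lowest at number 2 in every group, by −0.69 log2 units relative to number 1, and 0.24 higher at number 3 (edgeR adjusted p = 1.10e-08). CD1C took the same directions (−0.27 at number 2 and 0.39 at number 3, edgeR adjusted p = 0.00102), and CD1D varied least (−0.09 and 0.22, edgeR adjusted p = 0.0133). The CD1E over CD1A ratio of TPM was accordingly 1.29, 2.88 and 2.38 in replicates 1, 2 and 3 labelled siRNA1, 1.04, 2.30 and 1.93 in those labelled siRNA2, and 1.01, 2.39 and 1.85 in those labelled NTC. It was lowest at number 1 in each group. The sources used here do not say what the numbers stand for.

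Likeness of pattern was measured as the root-mean-square difference of log2 CPM over the 9 libraries, each gene centred on its own mean, among 12553 genes with a mean of at least 1 CPM. Libraries share label and number here, so these distances are a description. Within the family, CD1C and CD1D (0.16) and CD1B and CD1C (0.16) were closest, and CD1A and CD1E (0.52) were farthest apart. From CD1A, CD1E stood at rank 6184, at a distance close to that of the median gene (0.52). CD1C stood at rank 5.

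The 3 genes nearest to CD1A were AL158206.1 (0.17), UBXN10 (0.17) and POU2AF1 (0.18), a coactivator of octamer-binding transcription factors. CD2, the T cell adhesion receptor (0.11), AL158206.1 (0.13) and POU2AF1 (0.14) were nearest to CD1C. Nearest to CD1B were LEF1-AS1 (0.11), TSPAN5, a tetraspanin (0.13), and TRANK1 (0.14). The phosphatase gene PTPN3 (0.06) and the splicing kinase gene SRPK2 (0.07) were the nearest to CD1D. CD1E was nearest to AL138899.2 (0.11), DLEU7-AS1 (0.11) and AL365440.2 (0.14), and the first and last of these lie close to the CD1 genes.

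The surroundings of the cluster were examined over 500 kb on either side. Of 41 other annotated genes, most of them olfactory receptor genes and pseudogenes, 18 had 0 counts in every library and 8 were kept by the filter. With the block, 5.93% of all genes tested passed as lower between siRNA1 and NTC, and without it 1.28% passed in either direction. None of the 8 passed in this comparison without the block, and 1 fell with it. This was AL365440.2, annotated as antisense, at chr1:158474454-158494886 on the minus strand, with 9.10 CPM under siRNA1 and 11.9 CPM under NTC (log2 fold change with the block −0.37, SE 0.09, edgeR adjusted p = 0.00961). AL138899.2, a processed pseudogene between CD1D and CD1A, had 2.98 and 3.44 CPM under these labels (−0.20, SE 0.11, edgeR adjusted p = 0.285). AL138899.1, a lincRNA beside it, had 4.45 and 4.75 CPM (−0.08, SE 0.12, edgeR adjusted p = 0.754). KIRREL1, OR10T1P, EI24P2, OR10R3P and AL365440.1, at mean levels of 0.0830 to 1.08 CPM, did not pass either. The body of AL365440.2 overlaps those of OR10R2 and OR10R3P on the plus strand, so without strand some of their reads may be mixed. Overlap of their exons was not checked.

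Of the 8 neighbours kept, 6 passed for the number term, as did 35.8% of all genes tested, and 5 of the 6 were highest at number 3. AL138899.2 was 1.12 log2 units higher in libraries numbered 3 than in those numbered 1 (edgeR adjusted p = 6.61e-07), AL138899.1 1.06 higher (edgeR adjusted p = 2.70e-06) and AL365440.2 0.96 higher (edgeR adjusted p = 1.61e-07). OR10R3P was 1.11 higher (edgeR adjusted p = 9.33e-05) and OR10T1P 0.98 higher (edgeR adjusted p = 0.00538). KIRREL1, at 0.0830 CPM, differed by −2.15 between numbers 3 and 1 (edgeR adjusted p = 0.000253).

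Genes of the cortical thymocyte stage, the stage CD1 proteins mark, fell in the same comparison more often than they rose. Of 18 tested, 2 fell between siRNA1 and NTC without the block, where 1.28% of all genes tested passed in either direction. With the block 11 fell and 1 rose, where 5.93% of all genes tested passed as lower and 11.4% in either direction. The median log2 fold change with the block was −0.40 against 0.0048 over all genes. DNTT, the terminal transferase, averaged 16.3 CPM under siRNA1 and 41.2 CPM under NTC (with the block −1.33, SE 0.07, edgeR adjusted p = 8.85e-12). RAG2 averaged 5.97 and 14.8 CPM under these labels (−1.29, SE 0.09, edgeR adjusted p = 2.86e-09) and RAG1 18.1 and 41.8 CPM (−1.12, SE 0.11, edgeR adjusted p = 1.30e-07), both subunits of the receptor gene recombinase. ARPP21 stood at 14.5 and 27.0 CPM (−0.88, SE 0.07, edgeR adjusted p = 1.77e-08). DNTT and ARPP21 were the genes that fell without the block (edgeR adjusted p = 0.0112 and 0.0105).

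The riser was CD8B, the CD8 beta chain (0.44 with the block, SE 0.10, edgeR adjusted p = 0.00683), whereas CD4 fell (−0.40, SE 0.06, edgeR adjusted p = 0.000135). RAG1 also shared the number pattern of CD1E, at 12.7, 18.2 and 23.6 CPM in replicates 1, 2 and 3 labelled siRNA1, against 20.9, 42.9 and 61.6 CPM in those labelled NTC. DNTT, in contrast, was lowest at number 2 in each group, as CD1A was, at 19.4, 12.5 and 17.0 CPM under siRNA1 and 47.4, 30.3 and 46.0 CPM under NTC. Between siRNA2 and NTC no cortical-stage gene passed with or without the block, where 0.151% of all genes tested passed with it and 0% without it.

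The neighbouring stages gave mixed or no calls between siRNA1 and NTC. Over all genes tested, 1.28% passed in this comparison without the block and 11.4% with it, in either direction. Of 10 genes of mature thymocytes and egress, IL7R, the interleukin-7 receptor chain, fell without the block (−1.33, SE 0.14, edgeR adjusted p = 0.00134). With the block 2 of them fell, IL7R among them, and CD28 (0.31, edgeR adjusted p = 0.00453), CD27 (0.59, edgeR adjusted p = 0.0413) and HLA-E (0.20, edgeR adjusted p = 0.0458) rose. Of 8 early progenitor genes 3 were tested and none passed, and CD34 averaged 0.0529 CPM. Among 10 T lineage markers 1 fell without the block, the receptor chain gene CD3G (edgeR adjusted p = 0.0172). With it CD3G (−0.44, edgeR adjusted p = 2.24e-05), CD2 (−0.63, edgeR adjusted p = 0.000526) and TRBC1 (−0.35, edgeR adjusted p = 0.00599) fell and CD7 (0.53, edgeR adjusted p = 5.46e-05) rose.

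**Figure D4:**
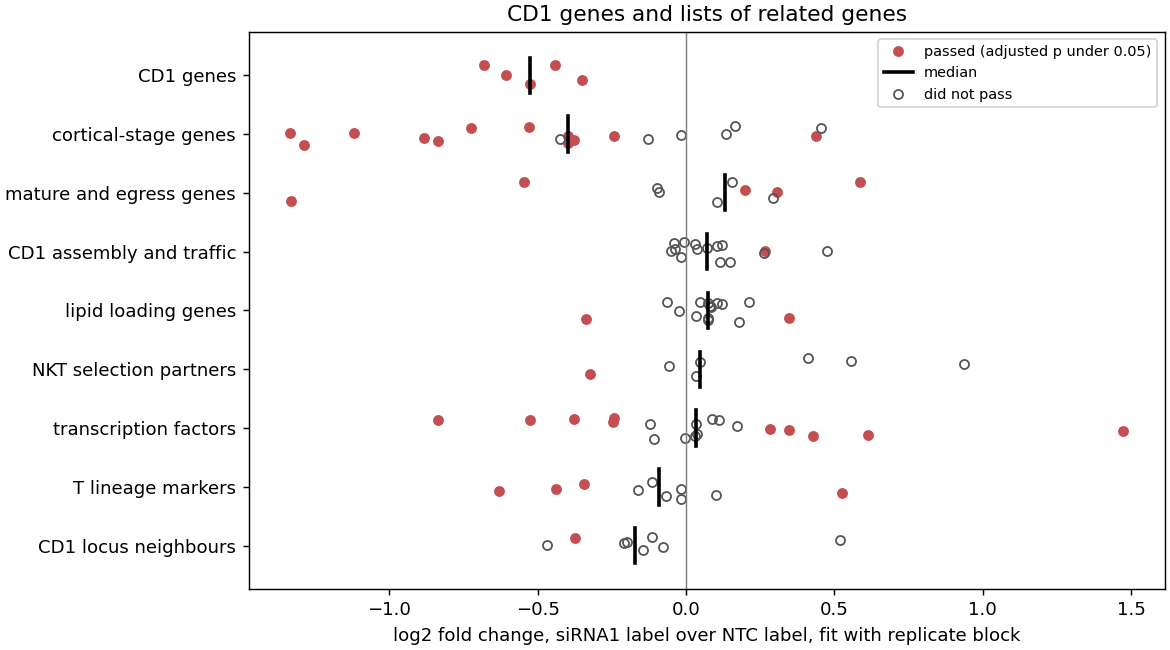
Log2 fold change of siRNA1 over NTC in the fit with the replicate block (horizontal axis) for the 5 CD1 genes and the tested members of 8 gene lists, 1 point per gene, filled where it passed, with the list median as a bar. The CD1 and cortical-stage medians are −0.53 and −0.40, and those of the other lists lie between −0.17 and 0.13.

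The genes that assemble and move CD1 proteins were examined in the same comparison. B2M, the light chain shared by all CD1 proteins, stood at 1934, 1661 and 1611 CPM in replicates 1, 2 and 3 labelled siRNA1, against 1683, 1504 and 1589 CPM in the NTC libraries (log2 fold change 0.12, SE 0.09, edgeR adjusted p = 0.741 without the block and 0.24 with it). Of the 15 assembly, chaperone and traffic genes, none passed without the block, where 1.28% of all genes tested passed in either direction. With it 1 rose, AP3M1 (0.27, SE 0.08, edgeR adjusted p = 0.0338), a subunit of the AP-3 adaptor that carries CD1b to lysosomes, and 11.4% of all genes tested passed in either direction in that fit. The list median with the block was 0.07. MTTP, the lipid transfer protein that loads CD1d in the endoplasmic reticulum, averaged 0.319 CPM over the libraries.

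Of 16 genes of lipid processing and loading, 15 were tested. None passed between siRNA1 and NTC without the block, where 1.28% of all genes tested passed in either direction. In the fit with the block, 11.4% of all genes tested passed in either direction and 5.93% as lower. With it PSAP, the precursor of the saposins that load lipids onto CD1 proteins, fell (1076 CPM under siRNA1 and 1357 CPM under NTC, −0.34, SE 0.06, edgeR adjusted p = 0.000688). CTSS, the lysosomal protease cathepsin S, rose (33.3 and 26.2 CPM, 0.35, SE 0.07, edgeR adjusted p = 0.000839). CTSL had 0 counts in all 9 libraries. Of 8 partners of NKT cell selection, 7 were tested, none passed without the block and 1 fell with it, the signalling adaptor gene SH2D1A (−0.32, SE 0.06, edgeR adjusted p = 0.00126). ZBTB16, the factor that marks NKT cells, averaged 0.204 CPM.

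Among 22 transcription factors linked to CD1 genes or to the cortical stage, 19 were tested, and 2 rose and 1 fell between siRNA1 and NTC without the block, 5 and 5 with it. Of all genes tested, 11.4% passed in either direction with the block and 1.28% without it. RXRA, the retinoid X receptor, rose with 33.0 CPM under siRNA1 and 11.9 CPM under NTC (1.47, SE 0.22, edgeR adjusted p = 0.00810). RUNX3 rose (190.4 and 125 CPM, 0.61, SE 0.12, edgeR adjusted p = 0.0340) and MYB, a factor of T cell development, fell (323 and 465 CPM, −0.53, SE 0.08, edgeR adjusted p = 0.00680). BCL11B, a T lineage commitment factor, fell with the block (−0.38, SE 0.07, edgeR adjusted p = 0.000327). PPARG had 0 counts, and the median of the list with the block was 0.04.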

How the data were processed

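The authors deposited, for each library, a table of read counts per gene: whole numbers with no normalisation, as the values show. Per the submitters' processing notes the build was GRCh38. The tables are laid out like STAR gene counts, but the sources used here name no aligner or annotation. The unstranded column was used, since the TruSeq kit was unstranded per the labels. Symbols came from GENCODE 29, which matched 57492 of 58096 identifiers; 75.5% to 77.6% of reads fell in genes, and lines that name no gene stayed out. TPM used the summed exon length.

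edgeR 4.0.16 (R 4.3.3) tested 18554 genes kept by filterByExpr (minimum count 10, total 15) with TMM factors and the quasi-likelihood test, 1 fit of 3 groups, Benjamini-Hochberg threshold 0.05, tested on simulated data. SE is the absolute log2 fold change over the root of F. Same-numbered libraries deviated together from their group means (r 0.383 to 0.623 in 9 of 9 pairs; other numbers −0.445 to 0.0693), so numbers pair samples, and values with the replicate number as a block are printed throughout. No 2 libraries of a group were repeats (chi-square per degree of freedom 35.3 to 59.3). Reads carry no molecular identifiers and are not independent molecules.

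Members and lists were chosen with earlier results of these data known. Named were the CD1 genes and TLX1, up to 4 list members with the smallest p among those that passed, kept neighbours within 500 kb, and the 3 nearest genes by pattern; other genes named from lists were chosen after their values were seen. Alternatives were RLE factors, library size alone, no filter, DESeq2 1.42.0, limma-voom 3.58.1, a minimum CPM of 1 in 3 libraries, the block, 2 groups alone, summed strand counts and libraries left out. Block fits with libraries left out, other scaling or voom were added after seeing the data. One of the genes that the naming rule picks is not reported here.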

Additional observations from a re-analysis of the deposited data

Results flagged for a closer look

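The difference of siRNA1 from siRNA2 is itself a test of whether both TLX1 siRNA labels stand equally far from NTC, and with the replicate block (edgeR quasi-likelihood) all 5 CD1 genes passed it, where 5.27% of all genes tested passed as lower. The log2 fold changes of the libraries labelled siRNA1 over those labelled siRNA2 were −0.60 for CD1A, −0.33 for CD1B, −0.46 for CD1C, −0.51 for CD1D and −0.29 for CD1E, lower in 3 of 3 pairs for each, as were 21.6% of all genes tested. Without the block none passed.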

How the results depend on the processing

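The replicate block decides the calls of the family. Against the fit without it, in which none of the 5 passed, it gave calls between siRNA1 and NTC at log2 fold changes of −0.68 (CD1A), −0.44 (CD1B), −0.53 (CD1C), −0.61 (CD1D) and −0.35 (CD1E), and between siRNA1 and siRNA2 at −0.60, −0.33, −0.46, −0.51 and −0.29 in the same order. Without a block, testing every gene with a count gave calls between siRNA1 and NTC for CD1A (−0.72), CD1B (−0.45), CD1D (−0.61) and CD1E (−0.36), and between siRNA1 and siRNA2 for CD1A (−0.60). DESeq2 called CD1D in both (−0.61 and −0.51). With the block, RLE factors, library size alone and limma-voom kept all 10 calls and the directions. With libraries left out of the block fits, the values of CD1C and CD1E ranged from −0.62 to −0.44 and −0.43 to −0.29 between siRNA1 and NTC, and from −0.55 to −0.36 and −0.34 to −0.26 between siRNA1 and siRNA2. Between siRNA1 and NTC the CD1C call was lost without NTC replicate 1 (−0.44) and without the libraries numbered 1 (−0.47) or 3 (−0.52), and the CD1E call without those numbered 1 (−0.29). Between siRNA1 and siRNA2 the CD1C call was lost without siRNA1 replicate 1 (−0.47), 2 (−0.46) or 3 (−0.47), siRNA2 replicate 2 (−0.36) or 3 (−0.48), or the libraries numbered 1 (−0.52), 2 (−0.39) or 3 (−0.48). The CD1E call was lost there without siRNA1 replicate 1 (−0.27) or the libraries numbered 1 (−0.30) or 3 (−0.26). The calls of CD1A, CD1B and CD1D held in all 12 such fits of each comparison. Without the block, leaving out libraries turned CD1E between siRNA1 and NTC (−0.66 to 0.0078) and between siRNA1 and siRNA2 (−0.61 to 0.057). Between siRNA2 and NTC it turned CD1A (−0.37 to 0.12), CD1B (−0.38 to 0.16), CD1C (−0.28 to 0.12, and 0.0196 without the libraries numbered 1) and CD1E (−0.41 to 0.32), and with the block CD1A (−0.18 to 0.0037), CD1C (−0.19 to 0.049; 0.0231 without siRNA2 replicate 1, 0.0194 without NTC replicate 1) and CD1E (−0.13 to 0.0058). No CD1 gene passed between siRNA2 and NTC in any fit. Over all genes, calls between siRNA1 and NTC numbered 238, but 590 with every gene with a count, 553 with DESeq2, 2117 with the block, 103 to 253 with 1 library left out, and 75, 23 and 0 without the libraries numbered 1, 2 and 3. Between siRNA1 and siRNA2 they numbered 201, but 557, 522 and 1958 in that order, 117 with the 2 groups alone, 72 to 185 with 1 library left out, and 33, 5 and 0 without the libraries numbered 1, 2 and 3. Between siRNA2 and NTC they numbered 0, but 15, 4 and 28 in that order. The cause was not tested. A library left out also leaves fewer samples, and CD1C is limited by its 140 to 295 reads a library.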
